A study of Mus musculus with 14 samples.

Results

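The genes described here encode subunits of the last steps of mitochondrial respiration, which are complex III, its partner cytochrome c, complex IV and ATP synthase. Members were all genes of the deposited count table whose symbols begin with Uqcr, with Cox and a digit from 4 to 8, or with Atp5, together with Cyc1 and Cycs. The rule uses names only and no measured value. It found 45 of the 23412 genes in the table. They comprised 9 genes of complex III, Cycs, 18 genes of complex IV, 15 genes of ATP synthase and 2 genes, Atp5s and Atp5sl, that carry an Atp5 name but are not subunits of the enzyme.

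Complex III passes electrons from ubiquinol to cytochrome c, and complex IV passes them from cytochrome c to oxygen. The proton gradient that these steps build drives ATP synthase, a rotary enzyme with a catalytic F1 head, a ring of c subunits in the membrane and a peripheral stalk that holds the head still. The catalytic core of complex IV and a few subunits of complex III and ATP synthase are encoded in mitochondrial DNA and made inside the organelle. All members here are nuclear genes, whose mRNAs are translated by cytosolic ribosomes before the proteins are imported. Neurons depend heavily on this pathway. The mitochondrially encoded subunits were not analysed here.

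RNA-seq and ribosome profiling had been done on mouse cortex. Both genotypes carried Rpl22flox/flox;CamKCre+, a floxed Rpl22 allele with a Cre named after CamK, a kinase family whose promoters are used to drive genes in excitatory neurons. The KO mice had in addition Fmr1X-Y, the loss of the X-linked gene for FMRP, an RNA-binding protein that regulates translation in neurons. RNA came from control mice 1, 3, 6 and 8 and KO mice 2, 4, 5 and 7, and footprints, the mRNA fragments that ribosomes shield from nuclease, came from control mice 1, 3 and 9 and KO mice 2, 4 and 10. The sources used here name no age, and no purification of tagged ribosomes. The values are read here as those of whole tissue, in which fewer cells of a type and less RNA per cell cannot be told apart.

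The RNA libraries held 8847547 to 11371851 counts each, and the footprint libraries 4124065 to 6033030. Members took 0.928% to 1.02% of RNA counts and 1.17% to 1.27% of footprint counts. Fmr1 itself was at 71.4 to 90.0 CPM (counts scaled to a common library size) in control RNA and 18.1 to 23.4 CPM in KO RNA, and at 111 to 115 against 5.84 to 8.56 CPM in footprints. The genotypes did not overlap, and the labels fit the targeted gene. The RNA libraries of KO mice 2, 4 and 7 differed from each other by a chi-square statistic per degree of freedom of 1.18 to 1.32 over genes, close to the value of 1 that counting noise alone gives, whereas KO mouse 5 differed from them by 5.64 to 6.02. Control mice 1 and 3 differed by 1.99 and the other control pairs by 4.03 to 11.8. Results in RNA for the members are therefore also given with the close libraries summed. The summed RNA of 8 excitatory neuron markers was 2663 to 2939 CPM in controls and 3321 to 3603 CPM in KO mice, and 2 of the 8 were called higher. The summed RNA of 8 hypothalamus markers was 48.3 to 81.6 CPM in controls and 25.8 to 29.4 CPM in KO mice, and 4 of the 7 tested were called lower. In footprints these sums were 5668 to 5827 against 5452 to 5730 CPM for the excitatory markers and 119 to 128 against 51.6 to 56.5 CPM for the hypothalamus markers, of which 6 of 7 were called lower. Of the 8 excitatory markers 3 were called higher in footprints and 2 lower. Other sums without overlap included striatum marker footprints (1260 to 1302 against 1409 to 1468 CPM, 5 of 8 higher and 1 lower), inhibitory neuron marker footprints (1820 to 1876 against 1967 to 1999 CPM, 4 of 8 higher and 1 lower), oligodendrocyte marker footprints (8785 to 8944 against 8640 to 8671 CPM, 3 of 8 higher and 3 lower) and oligodendrocyte marker RNA (5150 to 5662 against 4541 to 4881 CPM, 1 of 8 lower). Over all genes 3.53% were called higher and 3.88% lower in RNA, and 11.9% higher and 13.6% lower in footprints. By DESeq2 the footprint calls were 2 higher and 1 lower for excitatory and 3 lower for hypothalamus markers. DESeq2 gave no adjusted p for the footprints of Hcrt and Pomc, hypothalamus markers counted as lower above. It did not call Oxt, another of them (adjusted p = 0.181). The DESeq2 footprint calls were 3 higher and 1 lower for striatum and 3 higher and 1 lower for inhibitory markers. For oligodendrocyte markers they were 0 higher and 3 lower, beside 6.36% and 8.62% of all genes. Footprint sums of astrocyte, pericyte, red blood cell and choroid plexus markers and the RNA sum of heart and skeletal muscle markers were also lower in KO mice without overlap. The part of these differences in the results below was not tested.

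In control cortex the members covered nearly the whole range of footprint to RNA ratios. The ratio is the mean footprint CPM of a gene divided by its mean RNA CPM, so that the length of the gene cancels if both assays were counted over one region. Among the 41 members with enough RNA for testing, the median ratio was 0.945, beside 0.864 over all 13507 genes tested in RNA. Ratios under 0.1 were found for 5 members (12.2%), Cycs, Cox7c, Atp5h, Atp5g1 and Atp5g2, and for 2.18% of all genes. Ratios above 1 were found for 41.5% of members and 40.7% of all genes. By complex, the medians were 1.30 for the 9 genes of complex III, 0.894 for 14 genes of complex IV and 0.743 for 15 genes of ATP synthase.

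Uqcrq held the upper end of this range and Cycs the lower. Uqcrq, an accessory subunit of complex III, had only 22.6 to 28.0 CPM of RNA in controls and 320 to 325 CPM of footprints, a ratio of 12.6. Its ratio was much the same in KO mice, at 12.7. Cycs, cytochrome c itself, had 47.3, 50.4, 40.5 and 35.0 CPM of RNA in control mice 1, 3, 6 and 8, and 37.4, 35.1, 48.1 and 32.1 CPM in KO mice 2, 4, 5 and 7. Its footprints were at 0 counts in 5 of 6 libraries and at 1 count in KO mouse 10. A count of 0 allows up to 3 counts, or 0.510 to 0.713 CPM in these libraries, for counting error only. RefSeq names 3 pseudogenes after Cycs, and how the authors counted reads that fit several copies is not given in the sources used here. Its values are uncertain for that reason, as are those of Uqcrh, Cox5b, Cox7c, Atp5c1, Atp5f1, Atp5k and Atp5l, which have 1 to 4 such pseudogenes each. Only pseudogenes named after a member were counted. Copies under other names were not examined for the remaining members, Atp5h with its low ratio included.

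The 3 genes for the c ring, Atp5g1, Atp5g2 and Atp5g3, encode proteins that differ mainly in the targeting peptide removed on import. Their ratios ran from 0.00466 to 5.84. Atp5g3 had 173 to 225 CPM of RNA and 1171 to 1254 CPM of footprints in controls, a ratio of 5.84, higher than in 99.8% of genes. Atp5g1 had 97.6 to 134 CPM of RNA but only 2 to 8 footprint counts per control library, and Atp5g2 had 11.6 to 23.1 CPM of RNA and 0 or 1 footprint count. Reads shared between such alike genes may be split or lost in counting, so the division of the footprints among these 3 genes is uncertain. The plot of footprint to RNA ratios shows how far the members are spread and how closely mice of a genotype match.

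**Figure D1:**
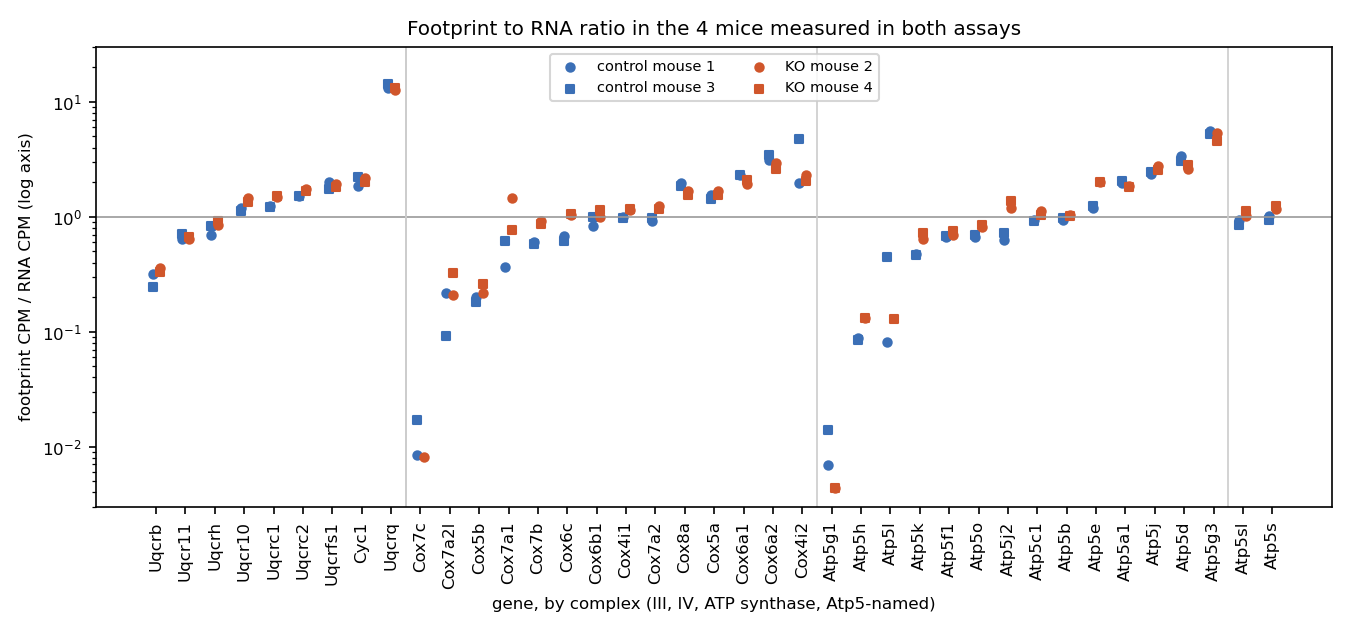
Footprint CPM divided by RNA CPM (vertical axis, logarithmic) for members with footprints in both control mice, one point for each of the 4 mice measured in both assays, in blue for control and orange for KO, ordered within each complex by the control ratio. Members run from Atp5g1 near the bottom to Uqcrq above 10, and a mouse whose library held no footprint of a gene has no point there.

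In RNA, subunits of complex IV and ATP synthase made up all calls, and most of them were lower in KO cortex. Cox6b1 and Cox7b of complex IV and Atp5h, Atp5j2 and Atp5k of ATP synthase fell, by 0.24 to 0.51 on the log2 scale, while Atp5d and Atp5j of ATP synthase rose, by 0.34 and 0.23. These were 7 of 41 members tested, at an adjusted p under 0.05 in edgeR's quasi-likelihood test, beside 7.41% of all genes (3.53% higher and 3.88% lower). The log2 fold change was below 0 in 34 of the 41, with a median of -0.10, beside -0.0013 over all genes. At an unadjusted p under 0.05 there were 3 higher and 14 lower members, beside 11.4% and 11.9% of all genes. DESeq2 called 2 higher and 7 lower, beside 4.17% and 4.30%. Fewer members had a log2 fold change below 0 under some alternatives. The number was 26 of 41 with mice 1 to 4 only and 31 of 42 with mice 5 to 8 only. Without control mouse 8 it was 28 of 41.

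Atp5k, subunit e of the membrane part of ATP synthase, which takes part in joining the enzyme into dimers, had the largest fall among called members. Its RNA was at 277, 302, 241 and 212 CPM in control mice 1, 3, 6 and 8 and at 190, 177, 170 and 188 CPM in KO mice 2, 4, 5 and 7. All KO libraries lay below all controls (log2 fold change -0.51, SE 0.089, adjusted p = 0.00458). Atp5j2, the neighbouring subunit f, was at 243, 208, 202 and 176 CPM in controls and 143, 146, 175 and 151 CPM in KO mice. The groups did not overlap, although KO mouse 5 came within 1 CPM of control mouse 8 (-0.43, SE 0.089, adjusted p = 0.0117). Atp5h, subunit d of the peripheral stalk, was at 351, 341, 308 and 328 CPM in controls and 282, 282, 258 and 272 CPM in KO mice, again without overlap (-0.28, SE 0.056, adjusted p = 0.0104).

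In complex IV, Cox7b, a small membrane subunit, was at 225, 239, 246 and 267 CPM of RNA in control mice 1, 3, 6 and 8 and at 207, 204, 205 and 210 CPM in KO mice 2, 4, 5 and 7. Its KO libraries lay in a narrow band below every control (-0.24, SE 0.057, adjusted p = 0.0202). Cox6b1, which faces the intermembrane space and helps to join complex IV into dimers, was at 356, 299, 348 and 441 CPM in controls and 300, 280, 277 and 301 CPM in KO mice. Here control mouse 3 lay within the KO range and control mouse 8 stood highest (-0.32, SE 0.090, adjusted p = 0.0466).

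The members that rose were Atp5d and Atp5j. Atp5d, the delta subunit in the central rotor of the F1 part, was at 91.1, 98.3, 109 and 123 CPM in controls and 142, 129, 127 and 134 CPM in KO mice (0.34, SE 0.080, adjusted p = 0.0216). Atp5j, coupling factor 6 of the peripheral stalk, was at 83.7, 85.6, 87.0 and 92.8 CPM in controls and 96.0, 103, 106 and 103 CPM in KO mice (0.23, SE 0.057, adjusted p = 0.0267). Neither gene overlapped between genotypes. Across all members, RNA libraries did not overlap for 2 that were higher and 8 that were lower in KO mice, beside 7.10% and 7.97% of all genes.

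The RNA calls depended on which libraries were counted as separate. When the counts of KO mice 2, 4 and 7 were added into a single library, and those of control mice 1 and 3 likewise, no member was called by edgeR in either direction (3 higher and 9 lower at an unadjusted p under 0.05, DESeq2 not run), and the adjusted p of the 7 ran from 0.147 for Atp5k to 0.372 for Atp5d, beside 0.124% of all genes called higher and 0.139% lower. With mice 1 to 4 only, 13 members were lower and 4 higher (11.8% and 12.3% of all genes). With mice 5 to 8 only, Cox7a2l alone was lower and 0 members were higher by edgeR (0.334% and 0.319% of all genes), with 13 lower and 3 higher at an unadjusted p under 0.05. Leaving out 1 mouse gave 2 lower members without KO mouse 2 (1.47% of all genes) or KO mouse 4 (1.36%), 3 without control mouse 6 (2.02%) or KO mouse 7 (1.48%), and 9 without control mouse 8 (6.21%). The 2 higher calls were both lost without mouse 1, 2, 3, 4, 6 or 7, where 1.19% to 2.09% of all genes were called higher. With 1 of these mice left out, 2 or 3 members were still higher at an unadjusted p under 0.05.

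Some genes moved differently in the mice whose sample titles begin with PD009 or PD019 (mice 1 to 4) than in those with PD028 (mice 5 to 8). Cox6a1, the isoform of a complex IV subunit used outside heart and muscle, was at 131 and 128 CPM in control mice 1 and 3 and 171 and 163 CPM in KO mice 2 and 4. In the other mice the order was turned, with 176 and 234 CPM in control mice 6 and 8 and 154 and 179 CPM in KO mice 5 and 7. The log2 difference between the genotypes was 0.38 in PD009, 0.35 in PD019 and -0.29 in PD028. Cox8a, a further small membrane subunit, showed 0.19, 0.22 and -0.32. Cox7a2l, the supercomplex factor, went from 0.076 and -0.11 to -0.75, with control mouse 8 highest at 77.9 CPM. Atp5h, by contrast, was at -0.32, -0.27 and -0.26, and Atp5k at -0.54, -0.77 and -0.34. With the prefix as a block, all 7 calls were kept.

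The nuclear subunit genes of respiration are known as targets of the transcription factors NRF1, GABP and YY1, so the 250 bases before the transcription start were searched in RefSeq sequence of build GRCm38.p6 for NRF1 (GCGCA, any base, GCGC), GABP (CCGGAAG) and YY1 (AAGATGGC), on both strands. A match is a description of letters and not a site of binding. NRF1 letters were in 5 of the 35 members with a sequence (14.3%, beside 5.84% of 17492 protein-coding genes), GABP letters in 8 (22.9%, beside 10.2%) and YY1 letters in 2 (5.7%, beside 1.77%). The GABP and YY1 letters can share the bases AAG, but no printed matches overlap. Printed here are the windows of the RNA-called members that hold a match, 5′ to 3′ on the strand of the gene, with matches in capitals. Atp5k and Atp5h, which fell, hold the NRF1 letters, and Atp5h and Cox6b1, which fell, and Atp5j, which rose, hold the GABP letters. The windows of Cox7b, Atp5j2 and Atp5d, also called in RNA, hold no match. Members not called in RNA hold the letters too, Atp5c1, Atp5g2 and Cox6a1 those of NRF1 and Atp5sl those of YY1. The GABP letters are also in Atp5e, Atp5l, Cox6a1, Uqcr11 and Uqcrh. A link between letters and RNA change was not tested. Atp5j is shown for the second of its 2 starts and has YY1 letters as well. The windows are chr5:108434400-108434649 (minus strand) for Atp5k, chr11:115419920-115420169 (minus) for Atp5h, chr7:30626115-30626364 (minus) for Cox6b1 and chr16:84834977-84835226 (minus) for Atp5j.
Atp5k: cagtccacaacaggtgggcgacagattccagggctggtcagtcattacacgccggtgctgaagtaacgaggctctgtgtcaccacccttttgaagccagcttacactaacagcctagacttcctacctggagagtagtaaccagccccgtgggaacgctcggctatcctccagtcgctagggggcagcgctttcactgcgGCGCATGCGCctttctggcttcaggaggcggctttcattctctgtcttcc
Atp5h: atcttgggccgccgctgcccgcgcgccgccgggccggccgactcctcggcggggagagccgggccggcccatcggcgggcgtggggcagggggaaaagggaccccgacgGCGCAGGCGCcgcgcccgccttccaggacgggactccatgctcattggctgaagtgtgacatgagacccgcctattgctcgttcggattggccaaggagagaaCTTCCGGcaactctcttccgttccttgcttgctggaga
Cox6b1: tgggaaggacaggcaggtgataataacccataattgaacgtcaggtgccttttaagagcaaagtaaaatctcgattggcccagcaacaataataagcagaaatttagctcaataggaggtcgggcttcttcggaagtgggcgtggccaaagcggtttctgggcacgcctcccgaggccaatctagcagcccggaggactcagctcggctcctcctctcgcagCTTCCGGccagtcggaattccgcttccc
Atp5j: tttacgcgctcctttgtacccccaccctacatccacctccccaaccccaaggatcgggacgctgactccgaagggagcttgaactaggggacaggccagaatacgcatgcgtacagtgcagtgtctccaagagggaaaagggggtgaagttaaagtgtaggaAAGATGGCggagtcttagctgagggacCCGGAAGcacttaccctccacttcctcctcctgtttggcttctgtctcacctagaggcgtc

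In footprints the direction was the opposite of that in RNA. Footprints rose in KO cortex for 18 of the 35 members tested and fell for 2, beside 25.5% of all genes called (11.9% higher and 13.6% lower). The members that rose were 3 in complex III, 8 in complex IV and 7 in ATP synthase. Those that fell were Atp5a1 and Atp5g3, both of ATP synthase. DESeq2 called 13 higher and 1 lower, beside 6.36% and 8.62% of all genes. The log2 fold change was above 0 in 29 of 35, with a median of 0.11, beside 0.0055 over all genes. Footprint libraries did not overlap for 20 members that were higher and 3 that were lower (18.1% and 19.2% of all genes).

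In complex III, footprints of Uqcrc1 and Uqcrc2, the large core proteins on the matrix side, and of Uqcr10, a small accessory subunit, rose. Uqcrc1 was at 435, 423 and 429 CPM in control mice 1, 3 and 9 and at 487, 495 and 490 CPM in KO mice 2, 4 and 10 (log2 fold change 0.20, SE 0.030, adjusted p = 9.99e-08). Uqcr10 was at 98.2, 102 and 96.1 CPM in controls and 120, 127 and 121 CPM in KO mice (0.31, SE 0.057, adjusted p = 7.12e-06). Both genes were clear of overlap, and their RNA did not pass the test (-0.0036 and -0.13). The catalytic subunits did not pass in either assay. Cyc1, the cytochrome that hands electrons to cytochrome c, was at 219, 229 and 240 CPM of footprints in controls and 240, 244 and 251 CPM in KO mice (0.092, SE 0.040, adjusted p = 0.0798). Its RNA was at 117, 104, 110 and 101 CPM in controls and 111, 121, 136 and 116 CPM in KO mice, with overlap (0.16, SE 0.071, adjusted p = 0.176). The Rieske iron-sulfur protein Uqcrfs1 had a footprint log2 fold change of 0.049 (SE 0.035, adjusted p = 0.326).

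In complex IV, the 8 members with higher footprints were Cox4i1, Cox5a, Cox5b, Cox6a1, Cox6c, Cox7a2, Cox7a2l and Cox7b. Cox7b, whose RNA fell, was at 136, 138 and 132 CPM of footprints in control mice 1, 3 and 9 and at 190, 177 and 190 CPM in KO mice 2, 4 and 10 (0.45, SE 0.048, adjusted p = 1.73e-13). Cox6c, another single-span membrane subunit, was at 131, 125 and 128 CPM in controls and 164, 167 and 177 CPM in KO mice (0.41, SE 0.049, adjusted p = 4.85e-11). In both genes the KO libraries lay well above all controls. Cox5b and Cox7a2, like Cox7b and Cox6c, kept their footprint call under all 12 alternatives. The other calls in complex IV were less stable. Cox6a1 (0.10, adjusted p = 0.0336), whose footprint libraries overlapped, lost its call under 6 of 12 alternatives, by DESeq2 (adjusted p = 0.162), in the fit over 14 libraries (adjusted p = 0.719) and without control mouse 1 or 3 or KO mouse 4 or 10 (adjusted p 0.0696 to 0.354). Cox4i1 (0.078, adjusted p = 0.0157) lost it by DESeq2 (adjusted p = 0.0678), in the fit over 14 libraries (adjusted p = 0.349), without control mouse 3 (adjusted p = 0.126) and without KO mouse 4 (adjusted p = 0.0972). Cox5a lost it without control mouse 3 (adjusted p = 0.0896) and in the fit over 14 libraries (adjusted p = 0.206).

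Cox7a2l had the largest footprint fold change of the members, 0.76 (SE 0.21, adjusted p = 0.00333), but from few counts. Its footprints were at 36, 23 and 43 counts in control mice 1, 3 and 9 and 36, 58 and 54 counts in KO mice 2, 4 and 10. On the CPM scale the lowest KO library, at 8.56, barely cleared the highest control, at 8.52. The call was lost without control mouse 3 (adjusted p = 0.131) or KO mouse 4 (adjusted p = 0.0708), by DESeq2 (adjusted p = 0.0558) and in the fit over 14 libraries (adjusted p = 0.153). Cox6b1, lower in RNA, had footprints of 298, 296 and 306 CPM in controls and 298, 323 and 315 CPM in KO mice, which overlapped (0.058, SE 0.036, adjusted p = 0.253).

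In ATP synthase, footprints of Atp5c1, Atp5d and Atp5e of the F1 part, of Atp5h, Atp5j and Atp5o of the peripheral stalk and of Atp5j2 of the membrane part rose. Atp5e, the small epsilon subunit of the rotor, was at 110, 119 and 119 CPM in control mice 1, 3 and 9 and at 152, 152 and 155 CPM in KO mice 2, 4 and 10 (0.39, SE 0.052, adjusted p = 8.40e-10). Atp5j was at 196, 208 and 206 CPM in controls and 263, 261 and 256 CPM in KO mice (0.35, SE 0.040, adjusted p = 6.37e-12). For both genes each KO library exceeded every control. Atp5o (0.11, adjusted p = 0.0428), whose footprint libraries overlapped, lost its call under 6 of 12 alternatives, by DESeq2 (adjusted p = 0.188), in the fit over 14 libraries (adjusted p = 0.278) and without control mouse 3 or 9 or KO mouse 2 or 4 (adjusted p 0.134 to 0.239). Atp5h lost it by DESeq2 (adjusted p = 0.0903), without control mouse 3 (adjusted p = 0.0809) and without KO mouse 10 (adjusted p = 0.0511). Atp5d and Atp5j2 lost it in the fit over 14 libraries alone (adjusted p = 0.0629 and 0.107).

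The footprints that fell were those of Atp5a1, the alpha subunit of the F1 head, and of Atp5g3. Nearly all counted c ring footprints were assigned to Atp5g3, a division that is uncertain as given above. Atp5a1 was at 2621, 2612 and 2623 CPM in control mice 1, 3 and 9 and at 2313, 2357 and 2343 CPM in KO mice 2, 4 and 10 (-0.16, SE 0.019, adjusted p = 2.13e-11). Atp5g3 was at 1254, 1171 and 1184 CPM in controls and 1153, 1043 and 1112 CPM in KO mice (-0.12, SE 0.025, adjusted p = 4.79e-05). The Atp5g3 call was lost by DESeq2 (adjusted p = 0.0656) and in the fit over 14 libraries (adjusted p = 0.239). Neither gene's footprints overlapped between genotypes, and the RNA of neither passed the test (-0.0024 and 0.094). Atp5b, the catalytic beta subunit that alternates with alpha around the head, had 1812, 1796 and 1793 CPM of footprints in controls and 1862, 1826 and 1841 CPM in KO mice (0.034, SE 0.021, adjusted p = 0.237). Footprints of alpha fell, while those of beta were slightly higher in each KO library than in each control.

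The footprint libraries of a genotype differed by a chi-square statistic per degree of freedom of 1.15 to 1.42, the range in which the RNA of KO mice 2, 4 and 7 also lay. Summing them in the same way would leave 1 library a genotype and no test, so the footprint p-values rest on libraries that differ little beyond counting noise. Fitted together with RNA over 14 libraries, whose spread is shared, 11 of the 18 higher calls and 1 of the 2 lower calls remained, beside 5.78% and 8.09% of all genes.

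**Figure D2:**
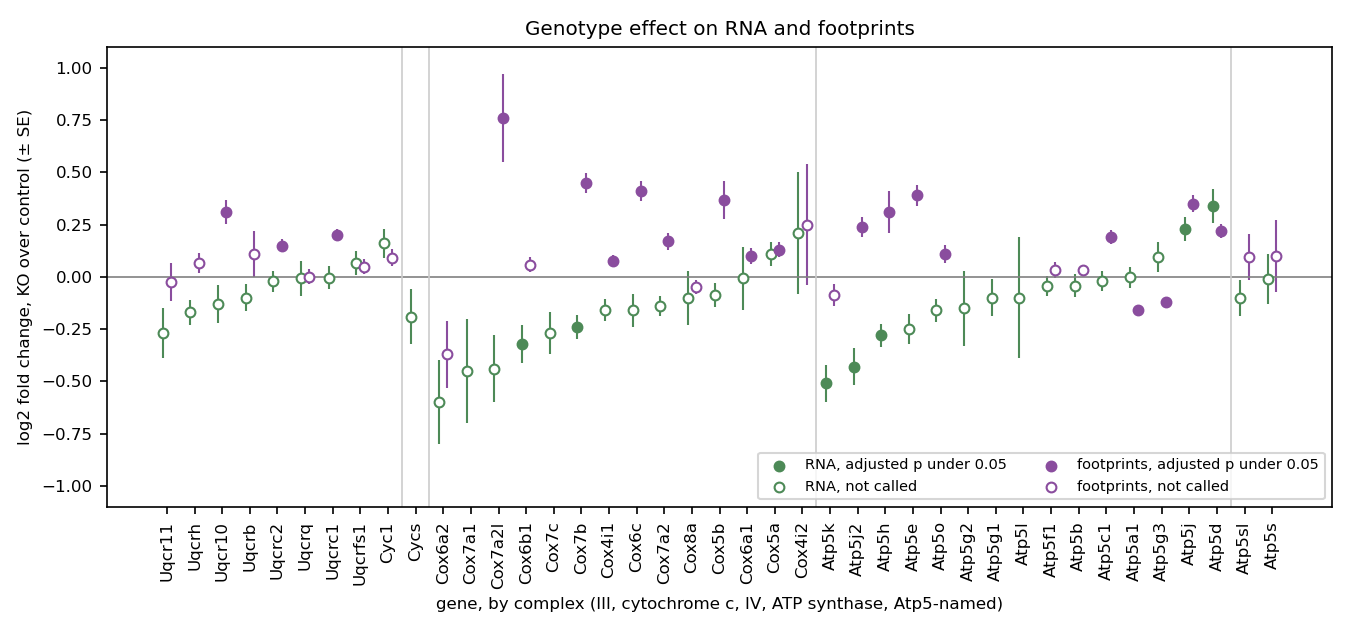
Log2 fold change of KO over control with its SE (vertical axis) for the 41 members tested in RNA (green) and the 35 tested in footprints (purple), by complex and ordered by the RNA value; filled points had an adjusted p under 0.05. Most green points lie below 0 and most purple points above it, and the 2 filled purple points below 0 are Atp5a1 and Atp5g3.

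The footprint changes of the members did not follow their RNA changes. Across the 35 members tested in both assays, Pearson's r between the log2 fold changes was 0.0230 and Spearman's rho was -0.0493, beside 0.359 and 0.220 over 12145 genes. Genes are not independent replicates and mice 1 to 4 gave both kinds of library, so these values are a description. In 23 of the 35 members RNA was lower and footprints were higher, beside 21.8% of all genes. In 30 the footprint fold change exceeded the RNA fold change, beside 49.6% of all genes. Atp5d and Atp5j were called higher in both assays. Cox7b, Atp5h and Atp5j2 were called lower in RNA and higher in footprints. Of their footprint calls, that of Cox7b was kept under all 12 alternatives, while those of Atp5h and Atp5j2 were lost under 3 and 1, as given above.

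Translational efficiency (TE), the footprint count of a gene relative to its RNA count, was tested as the interaction of genotype and assay. TE rose in KO cortex for 11 of 35 members, beside 7.81% of all genes called (3.40% higher and 4.41% lower). No member was called lower by edgeR, and 2 were lower at an unadjusted p under 0.05, beside 12.7% of all genes. DESeq2 called 1 member lower and 14 higher, beside 5.05% and 3.25% of all genes. The 11 were Uqcr10 in complex III, Cox4i1, Cox5b, Cox6c, Cox7a2 and Cox7b in complex IV, and Atp5e, Atp5h, Atp5o, Atp5j2 and Atp5k in ATP synthase. With the title prefix as a block 9 were called, without Cox4i1 (adjusted p = 0.0512) and Atp5o (adjusted p = 0.0664). The median TE log2 fold change was 0.20 over the members, beside -0.011 over all genes. All 12 tested members of complex IV had a value above 0, with a median of 0.27, but with the mouse as a replicate block 4 of them were below 0 (Cox4i2 -0.45, Cox6a1 -0.23, Cox6a2 -0.26 and Cox8a -0.26). The medians were 0.19 for complex III and 0.16 for ATP synthase.

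Cox7b had the lowest adjusted p of these. Its footprint to RNA ratio was 0.606 and 0.577 in control mice 1 and 3 and 0.918 and 0.866 in KO mice 2 and 4 (TE log2 fold change 0.69, SE 0.080, adjusted p = 1.59e-05). Atp5j2 had ratios of 0.631 and 0.721 in the control mice and 1.20 and 1.36 in the KO mice (0.67, SE 0.12, adjusted p = 0.00158). For both genes lower RNA and higher footprints add up to the change.

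Atp5e had ratios of 1.19 and 1.25 in control mice 1 and 3 and 2.01 and 2.0 in KO mice 2 and 4 (0.63, SE 0.10, adjusted p = 3.84e-04). Cox6c had ratios of 0.680 and 0.616 in the control mice and 1.04 and 1.05 in the KO mice (0.56, SE 0.11, adjusted p = 0.00208). Uqcr10 had ratios of 1.19 and 1.13 in the control mice and 1.45 and 1.34 in the KO mice (0.43, SE 0.13, adjusted p = 0.0401). In all 5 genes each KO mouse exceeded both control mice. The call for Uqcr10 was lost under 7 of 20 alternatives, 6 of them with 1 mouse left out (adjusted p 0.0538 without control mouse 3 to 0.127 without KO mouse 2) and the other with mice 1 to 4 only (adjusted p = 0.0647).

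Atp5h, with a low ratio throughout, went from 0.0877 and 0.0847 to 0.132 in both KO mice (0.58, SE 0.10, adjusted p = 9.92e-04). Atp5k is the member called in TE with no rise in footprints. Its footprints were at 130 to 140 CPM in controls and 122 to 131 CPM in KO mice (-0.085, SE 0.052, adjusted p = 0.242) while its RNA fell (TE 0.42, SE 0.12, adjusted p = 0.0420). That call was lost under 10 of 20 alternatives, among them the summed RNA libraries (adjusted p = 0.0923), RNA of mice 5 to 8 (adjusted p = 0.113) and 8 of the 10 fits with 1 mouse left out (adjusted p 0.0515 without KO mouse 5 to 0.144 without KO mouse 4). At the other end, TE log2 fold changes were -0.23 for Atp5g3 (SE 0.095, adjusted p = 0.151) and -0.17 for Atp5a1 (SE 0.059, adjusted p = 0.0796). Atp5a1 was the member that DESeq2 called lower (adjusted p = 0.0241), and it was also called lower with RNA of mice 5 to 8 (adjusted p = 0.0394) and with mice 1 to 4 only (adjusted p = 0.0288), but under none of the other 17 alternatives. Atp5g3 was called lower with RNA of mice 5 to 8 only (-0.35, adjusted p = 0.0104).

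No alternative for TE summed the footprint libraries, which differ little beyond counting noise, so none tests that limit. Cox6c, Cox7b, Atp5e, Atp5h and Atp5j2 kept their TE call under all 20 alternatives run. Cox4i1 (0.23, adjusted p = 0.0307) lost it under 10 of the 20, among them the summed RNA libraries (adjusted p = 0.110) and all fits with 1 mouse left out except those without control mouse 8 or KO mouse 5 (adjusted p 0.0512 to 0.147). Atp5o (0.26, adjusted p = 0.0429) lost it under 9, among them the summed RNA libraries (adjusted p = 0.0833), the exon columns (adjusted p = 0.0629), no low-count filter (adjusted p = 0.0537) and the fits without control mouse 1, 3 or 9 or KO mouse 2 or 4 (adjusted p 0.0655 to 0.176). Cox5b lost it without KO mouse 4 (adjusted p = 0.0992) or control mouse 9 (adjusted p = 0.0558), and Cox7a2 without KO mouse 2 (adjusted p = 0.0505). Without KO mouse 2, KO mouse 4 or control mouse 9 the number of higher members was 6, beside 1.46%, 1.46% and 2.32% of all genes. With plain library sizes it was 17, beside 6.08% of all genes called higher and 2.84% lower. With the mouse as a replicate block, where only mice 1 to 4 carry the comparison, 16 members were higher, the 11 among them, and 3 were lower (6.55% and 8.37% of all genes). The 3 were Atp5d (-0.27, adjusted p = 0.00371), Cox6a1 (-0.23, adjusted p = 0.0142) and Cox8a (-0.26, adjusted p = 0.00203), whose RNA was higher in KO mice 2 and 4 than in control mice 1 and 3.

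**Figure D3:**
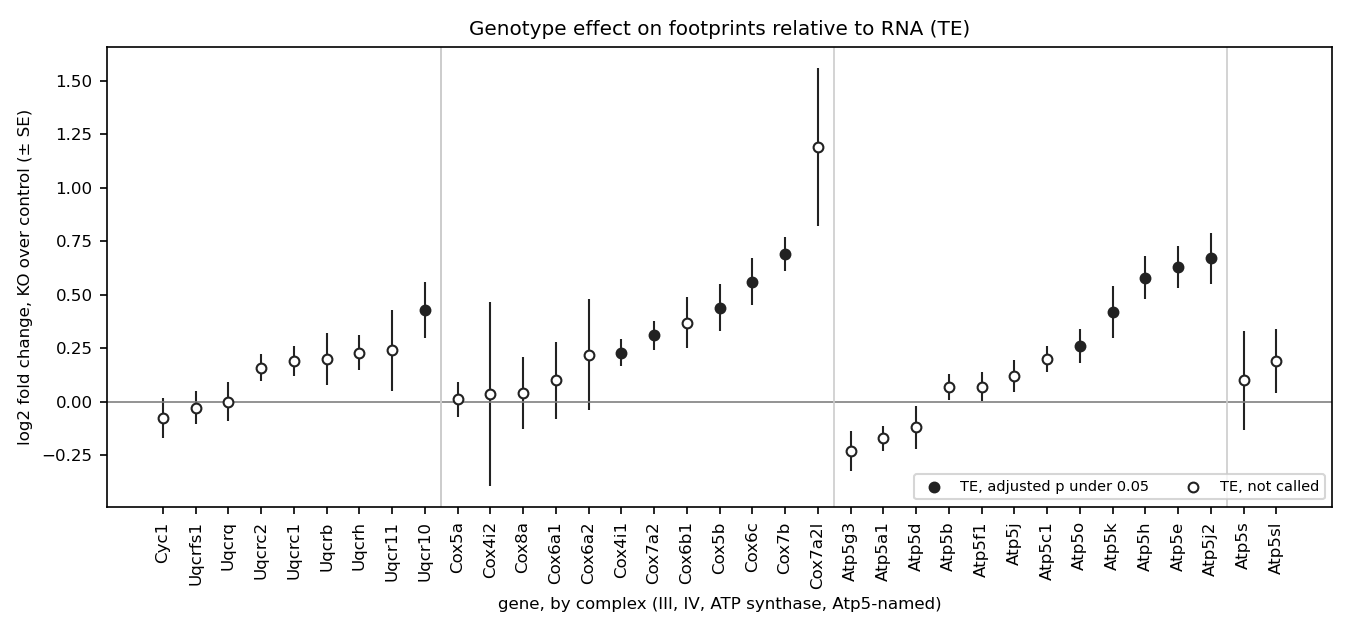
TE log2 fold change of KO over control with its SE (vertical axis) for the 35 members tested, by complex and ordered by value; filled points had an adjusted p under 0.05. All 11 filled points lie above 0, and Cox7a2l has the highest value with the widest SE but one in complex IV and is not filled.

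**Figure D4:**
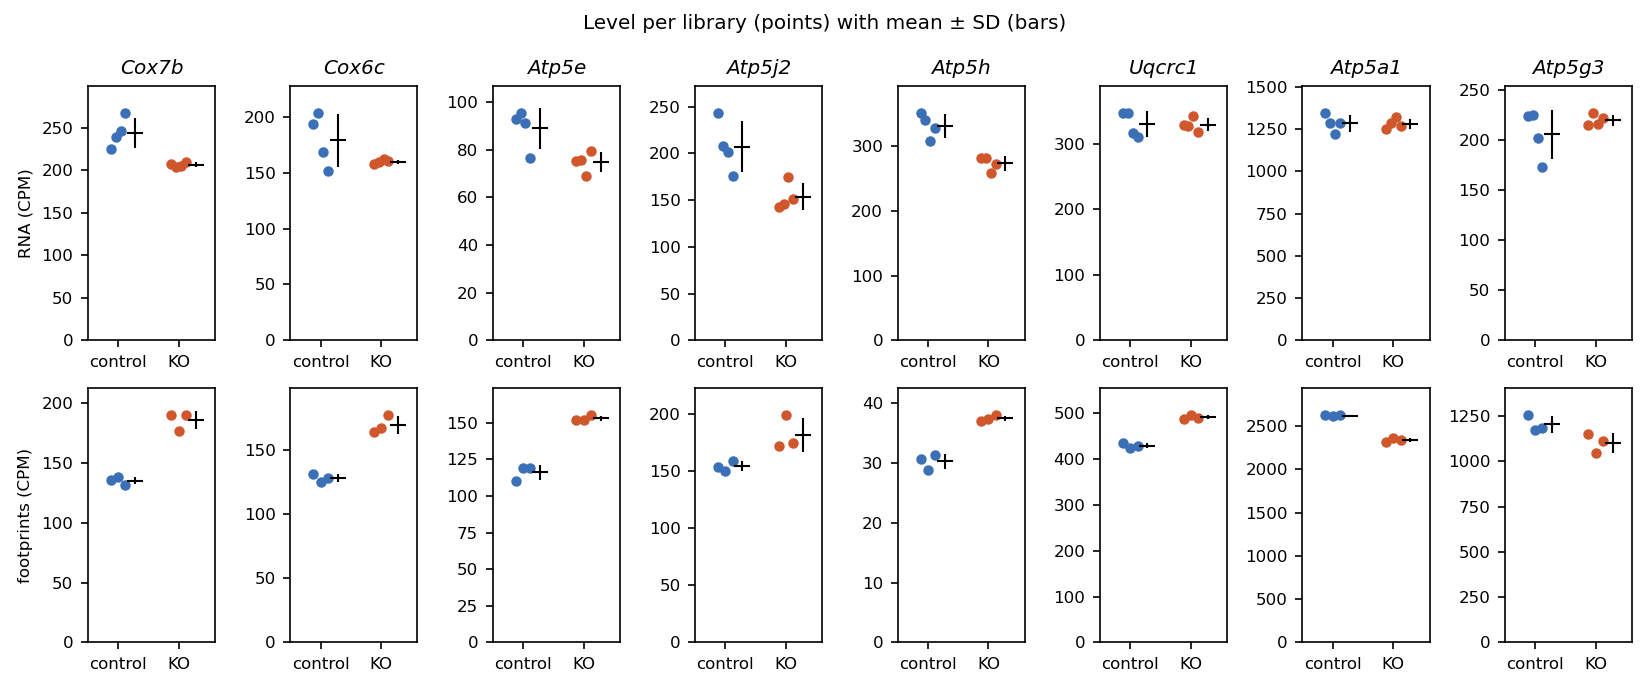
CPM per library (points, blue for control and orange for KO) with the mean and SD of each genotype (black bars) in RNA (upper row, 4 mice a genotype) and footprints (lower row, 3 mice a genotype) for 8 members; vertical axes start at 0 and differ between panels. From Cox7b to Atp5h RNA is lower or level and footprints are higher in KO mice, while Atp5a1 and Atp5g3 have lower footprints in all KO mice.

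Several complex IV subunits have alternative isoforms, and in each family the broadly used form had far more counts than the others. For subunit 4, Cox4i1 had 7261 to 8825 counts of RNA (772 to 860 CPM) in controls and the lung-enriched Cox4i2 had 9 to 18 counts. Cox6a1 had 1233 to 2404 counts (128 to 234 CPM) and the heart and muscle form Cox6a2 had 43 to 78 counts. Cox7a2 had 2089 to 2240 counts (217 to 231 CPM) and the heart and muscle form Cox7a1 had 18 to 36 counts. The testis forms Cox6b2 and Cox7b2 had 2 to 19 and 3 to 9 counts, the muscle form Cox8b had 1 to 5 counts, and Cox8c, a testis form, was at 0 counts in all 14 libraries. In the c ring, control RNA was at 173 to 225 CPM for Atp5g3, 97.6 to 134 CPM for Atp5g1 and 11.6 to 23.1 CPM for Atp5g2. These are values per gene and are not corrected for length.

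Cox6a2 was one of 3 rare isoforms that passed the filter in RNA, beside Cox4i2 and Cox7a1. Its RNA was at 4.94, 4.46, 5.54 and 7.61 CPM in control mice 1, 3, 6 and 8 and at 3.91, 3.92, 2.67 and 4.25 CPM in KO mice 2, 4, 5 and 7, and its footprints were at 15.4, 15.5 and 13.3 CPM in control mice 1, 3 and 9 and at 11.4, 10.3 and 12.4 CPM in KO mice 2, 4 and 10. Libraries did not overlap in either assay, yet neither passed the test over all genes (RNA -0.60, SE 0.20, adjusted p = 0.0795; footprints -0.37, SE 0.16, adjusted p = 0.0855). Cox6b2, Cox7b2, Cox8b and Cox8c did not pass the filter on low counts in any comparison, and with no filter the first 3 were not called. Cycs, Cox7a1, Cox7c, Atp5g1, Atp5g2 and Atp5l were tested in RNA only. Of these, Cox7c, a small subunit of complex IV, was at 83.7, 80.1, 76.7 and 58.9 CPM of RNA in controls and 57.9, 59.3, 71.5 and 59.1 CPM in KO mice (-0.27, SE 0.10, adjusted p = 0.112). It had 3, 8 and 12 footprint counts in controls and 2, 0 and 0 in KO mice, too few to pass the filter. With no filter its footprints were called lower (adjusted p = 0.00343), the single call that members outside the filter gave. Atp5l, subunit g beside e and f, had 11 to 29 RNA counts in controls and at most 3 footprint counts in any library. The 2 genes outside the enzyme were not called in any comparison, with TE log2 fold changes of 0.10 for Atp5s and 0.19 for Atp5sl.

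Other genes of the pathway are given for comparison, with all RNA libraries kept separate. Their values with close RNA libraries summed are not given. In that summed RNA fit 0.124% of all genes were called higher and 0.139% lower, and no member was called. Of 36 subunit genes of complex I, which feeds electrons into the chain, 13 fell in RNA, beside 3.88% of all genes, and 0 rose (0 higher at an unadjusted p under 0.05 and 0 by DESeq2). Of the 34 tested in footprints, 20 rose and 1, Ndufb2, fell, beside 11.9% and 13.6% of all genes. DESeq2 called 15 of the 34 higher and 0 lower there (Ndufb2 adjusted p = 0.0982). TE rose for 16 of 34 (3.40% of all genes) and fell for 0 (0 lower at an unadjusted p under 0.05 and 0 by DESeq2). Their median log2 fold changes were -0.12 in RNA, 0.14 in footprints and 0.28 in TE. Of the 4 subunits of complex II, Sdhb footprints rose (0.13, adjusted p = 0.00833), Sdhd footprints fell (-0.14, adjusted p = 0.0445), and DESeq2 called neither. These were 1 of 4 each way, beside 11.9% and 13.6% of all genes. In RNA and TE edgeR called none (1 each way in RNA and 1 lower in TE at an unadjusted p under 0.05, 0 by DESeq2).

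Another 3 subunit genes fall outside the symbol rule. 2010107E04Rik, a small membrane protein of ATP synthase, fell in RNA (-0.25, adjusted p = 0.0196), rose in footprints (0.20, adjusted p = 9.50e-04) and rose in TE (0.44, adjusted p = 0.00147). Usmg5, another small membrane protein of the enzyme, fell in RNA (-0.32, adjusted p = 0.0159) and in footprints (-0.43, adjusted p = 0.0349), the latter not called by DESeq2 (adjusted p = 0.157). Ndufa4, a complex IV subunit despite its name, was not called.

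Assembly factors build the complexes but do not stay in them. Of 27 for complex IV, RNA of Pet100 alone was called (1 of 27 lower, beside 3.88% of all genes), and edgeR called none in TE (6 higher and 0 lower at an unadjusted p under 0.05, 0 by DESeq2). Footprints rose for 4 of the 27, Cox14, Surf1, Sco2 and Cmc1, and fell for 1, Higd1a, beside 11.9% and 13.6% of all genes. DESeq2 called Cox14 and Sco2 higher and Higd1a lower there. Of 6 for complex III, Mnf1 fell in RNA (-0.24, adjusted p = 0.0137) and rose in TE (0.40, adjusted p = 0.0165), Ttc19 rose in footprints (0.31, adjusted p = 1.01e-05) and AI462493 fell there (-0.33, adjusted p = 0.0166). DESeq2 did not call AI462493 (adjusted p = 0.101). These were 1 of 6 lower in RNA (3.88% of all genes), 1 of 6 higher in TE (3.40%) and 1 of 6 each way in footprints (11.9% and 13.6%). Of 4 for ATP synthase, its inhibitor Atpif1 included, Tmem70 rose in footprints (0.41, adjusted p = 1.91e-05), and TE rose for Tmem70 (0.39, adjusted p = 0.0451) and Atpaf1 (1.13, adjusted p = 0.0230). DESeq2 called Tmem70 higher in TE (adjusted p = 0.0426) and gave no adjusted p for Atpaf1. The calls were 1 of 4 higher in footprints and 2 of 4 higher in TE, beside 11.9% and 3.40% of all genes.

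Of 10 regulators of respiratory genes, Ppargc1b, a coactivator, rose in RNA (0.47, SE 0.081, adjusted p = 0.00449) and fell in TE (-0.69, SE 0.13, adjusted p = 0.00233). Tfam, which packages and transcribes mitochondrial DNA, rose in footprints (0.27, SE 0.10, adjusted p = 0.0439) but was not called by DESeq2 (adjusted p = 0.189). These were 1 of 10 higher in RNA (3.53% of all genes), 1 of 9 higher in footprints (11.9%) and 1 of 9 lower in TE (4.41%). Nrf1, Gabpa, Gabpb1 and Yy1, the genes of the factors whose letters were searched, were not called in any comparison. Their RNA log2 fold changes were 0.011 for Nrf1, -0.089 for Gabpa, -0.10 for Gabpb1 and 0.0091 for Yy1.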

How the data were processed

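For the RNA-seq and ribosome profiling libraries of mouse cortex, the authors deposited raw counts of each gene in a single table. Per the submitters' processing notes, the tools included Bowtie2, STAR 2.5, featureCounts and Subread 1.4.6 and the builds mm9 and mm10, with no role given. The strand setting, the region counted and the treatment of reads that fit several genes are not given in the sources used here. Each RNA library has a column without a suffix and one marked exon. The former was used, as it and the footprint columns lack a value in the same 2849 genes, and the latter, with no gene empty, was an alternative. Libraries were grouped by the genotype in the labels, which name separate mice.

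Genotypes were compared with the two-sided quasi-likelihood F test of edgeR 4.0.16 in R 4.3.3, separately in RNA and in footprints, after TMM normalization and filterByExpr with its minimum count at 10. TE was tested as the interaction of genotype and assay over 14 libraries. Adjusted p-values are Benjamini-Hochberg values over every gene in the comparison, and an adjusted p under 0.05 was called. CPM are counts scaled by TMM factors. The procedure was also run on simulated data, but no outcome of that run is given here and no result rests on it. Limits for 0 counts cover counting error only.

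Values are given for Fmr1 as ranges and per library for Cyc1, Cycs and, per complex and comparison, for the called members with the 2 greatest rises and the 2 greatest falls at a mean of at least 1 CPM. Isoform families are described by their levels, and other members named were chosen after their values were seen. The members and lists were chosen with earlier results of these data known. Symbols of 42 members matched RefSeq, and 3 matched an older symbol. Motifs were searched in RefSeq promoter sequence of GRCm38.p6. A comparison by coding length had been planned and was not run, since no protein table was used here, so levels are not compared between genes per length.

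Mouse numbers 1 to 4 in both assays name the same animals, so a fit of TE with the mouse as a block was run. The RNA and footprint deviations of these mice from their group means had a correlation of 0.0112 in controls and 0.000146 in KO mice over 12145 genes. The other alternatives were DESeq2 1.42.0, DESeq2 size factors, plain library sizes, no low-count filter, the title prefix as a block, each mouse left out, the exon columns, close RNA libraries summed, subsets of mice, and footprints fitted with RNA.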

Additional observations from a re-analysis of the deposited data

Results flagged for a closer look

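Among 82 groups of 4 RNA libraries (the 41 members in each genotype), 2 held a library far from the others, where chance flags about 5% of groups. The highest KO library of Cox7c, mouse 5 at 71.5 CPM, stood apart from the other KO libraries at 57.9 to 59.3 CPM, with a gap of 0.901 of the group's range. The highest KO library of Atp5b, mouse 5 at 1990 CPM, stood apart from the others at 1784 to 1812 CPM, with a gap of 0.861 of the range. Both belong to KO mouse 5, whose RNA library also differed most from the other KO libraries over all genes.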

How the results depend on the processing

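Of the calls on single members, 5 of 11 in TE, 11 of 20 in footprints and 0 of 7 in RNA were kept under every alternative run. The sign of the fold change turned under some alternative for 19 of 41 members in RNA, 4 of 35 in footprints and 10 of 35 in TE, and a value on the other side of 0 passed the threshold only for Cox6a1 and Cox8a, in RNA and TE, where neither was called over all mice. With mice 1 to 4 only their RNA log2 fold changes were 0.37 and 0.21 and their TE values -0.23 and -0.27. With the replicate block by mouse their TE values were -0.23 and -0.26.

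For RNA, 5 members were lower and 2 higher over all mice. Lower members numbered 0 with close libraries summed, 1 with mice 5 to 8, 13 with mice 1 to 4, and 2 to 9 with 1 mouse left out. Higher members numbered 1 in the exon columns (4.21% of all genes), 0 with close libraries summed, 0 with mice 5 to 8, 4 with mice 1 to 4, and 0 to 2 with 1 mouse left out.

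For footprints, 18 higher members became 11 in the fit over 14 libraries and 12 to 18 with 1 mouse left out (9.38% to 10.5% of all genes), and 2 lower members became 1 in that fit and 1 by DESeq2 (8.62% of all genes). For TE, 11 higher members became 17 with plain library sizes, 16 with the replicate block, and 6 to 15 with 1 mouse left out. The 0 lower members became 1 by DESeq2, 3 with the replicate block, 2 with RNA of mice 5 to 8 and 4 with mice 1 to 4, beside 5.05%, 8.37%, 6.05% and 8.48% of all genes. Plain library sizes moved the median of all genes by 0.059 in footprints and 0.067 in TE. A cause was not tested, except that subsets hold fewer libraries and the summed fit has 5 RNA libraries in place of 8. Cycs, Cox7a1, Cox7c, Atp5g1, Atp5g2 and Atp5l had footprint counts under the filter. With no filter 3 members were lower in footprints, Cox7c being the added one.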
